A study of Mus musculus with 28 samples.

Results

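The genes described here were 8 genes of the erythroid lineage, Gata1, Klf1, Epor, Alas2, Slc4a1, Ermap, Ank1 and Car1, chosen by their symbols among the 25251 genes of a deposited expression table. They were compared between Flt3-ITD and wild-type mice in bone marrow mononuclear cells (MNCs), with endothelial cells (ECs) and mesenchymal stromal cells (MSCs) beside them. All mice were on a C57BL/6 background and were 8 to 10 wk old. ITD mice carried on both alleles (Flt3 ITD/ITD) a knock-in of an internal tandem duplication in the receptor tyrosine kinase Flt3, which leaves the receptor active without its ligand, and WT mice carried 2 normal alleles (Flt3 +/+) and were littermates where possible. The knock-in sits in the germ line, so stromal and blood cells alike carried it. Each MNC library was made from 200 cells, with 4 WT and 4 ITD libraries. Each EC (CD45-Ter119-CD31+) or MSC (CD45-Ter119-CD31-CD166-Sca1+) library was made from 100 sorted cells, with 5 libraries per genotype and population. The gates for ECs and MSCs left out cells with the red cell antigen Ter119.

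Red blood cells arise from marrow progenitors that come to depend on erythropoietin, the hormone bound by the receptor Epor. The transcription factors Gata1 and Klf1 switch on the genes of globin, haem synthesis and the red cell membrane, and precursors then fill with haemoglobin and lose their nucleus. Alas2 encodes the erythroid form of the first and rate-limiting enzyme of haem synthesis, Slc4a1 the anion exchanger band 3, Ank1 the ankyrin that ties band 3 to the spectrin skeleton, Ermap a membrane protein of erythroid cells that carries a blood group, and Car1 a carbonic anhydrase abundant in red cells. In a bulk library, fewer erythroid cells and less RNA per erythroid cell cannot be told apart.

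Promoter sequences of 5 of the 8 genes were held by the RefSeq table used here (GRCm38.p6), those of Gata1, Klf1, Epor, Alas2 and Ermap. They are shown because Gata1 and Klf1 are themselves members and bind known motifs. Binding was not measured, and the part of these motifs in the levels of the genes was not tested. Each line gives bases from 120 before the RefSeq transcription start onwards, up to the start or to the first base that GENCODE M21 places in an exon. Capitals mark matches on either strand to AGATAA or TGATAA, forms of the motif bound by GATA factors, or to CACCC, the core of the motif bound by KLF factors.

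Gata1 (chrX:7967911-7968030, minus strand): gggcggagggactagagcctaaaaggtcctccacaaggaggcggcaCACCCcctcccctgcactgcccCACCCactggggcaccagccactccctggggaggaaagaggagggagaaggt
Klf1 (chr8:84901862-84901927, plus strand): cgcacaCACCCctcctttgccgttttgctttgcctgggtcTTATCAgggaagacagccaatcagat
Epor (chr9:21963577-21963696, minus strand): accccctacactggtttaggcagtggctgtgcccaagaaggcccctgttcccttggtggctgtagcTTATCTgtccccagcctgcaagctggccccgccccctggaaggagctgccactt
Alas2 (chrX:150547297-150547374, plus strand): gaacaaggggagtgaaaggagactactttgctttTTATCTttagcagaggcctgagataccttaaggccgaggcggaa
Ermap (chr4:119190012-119190115, minus strand): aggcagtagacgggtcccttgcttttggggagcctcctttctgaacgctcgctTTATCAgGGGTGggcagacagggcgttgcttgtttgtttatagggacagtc

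In the full 250 bases before the start, 4 of the 5 promoters held AGATAA or TGATAA, against 16.6% of 32851 mouse promoters of that length, and 5 of 5 held CACCC, against 52% of them. In the Ermap promoter the TGATAA match (67 to 62 bases before the start) and the CACCC match (60 to 56 before it) lay next to each other. The Gata1 promoter held 2 CACCC matches and neither GATA form in these bases. No match overlapped another one. The genes themselves lie on several chromosomes, with Gata1 and Alas2 on X, Klf1 and Ank1 on 8, Epor on 9, Slc4a1 on 11, Ermap on 4 and Car1 on 3.

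Total counts were 6377013 to 33880743 over the 28 libraries and 14260910 to 22149240 over the 8 MNC libraries. The populations carried their defining markers. Summed over 7 endothelial genes, read counts scaled by transcript length and library depth (RPKM) ran from 1793 to 2642 in ECs and from 4.94 to 29.2 in the others. Summed over 7 mesenchymal genes, they ran from 25704 to 30130 in MSCs and stayed at or below 392 elsewhere, and 10 pan-leukocyte genes summed to 5215 to 7560 in MNCs and at most 321 elsewhere. The level of Flt3 mRNA does not check the genotype, since the duplication adds sequence to the transcript without removing it.

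One library stood apart. WT MNC replicate 1 held almost no RNA of the 8 genes, with 0 to 48 counts for each, whereas the lowest of the other 3 WT libraries held 172 to 4668. Its level was 32.0-fold (Ermap) to 1211-fold (Alas2) below the lowest of those 3 for the 6 genes with any count. Globin genes took 0.005305% of its counts, against 2.18%, 8.393% and 7.614% in WT replicates 2 to 4 and 0.6623%, 1.291%, 0.1233% and 0.4995% in ITD replicates 1 to 4. Its depth (19227319 counts) and its number of detected genes (17627) were within the range of the other MNC libraries. The tests of the 8 genes, the counts of the erythroid lists and the call of Socs2 are therefore given with and without it.

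The 8 genes were expressed in WT MNCs at very different levels. In RPKM, which corrects for transcript length, the order by mean was Alas2, Car1, Gata1, Ermap, Slc4a1, Klf1, Epor and Ank1, from 370 ± 360 to 3.70 ± 2.80 (SD, n = 4). Ank1, Epor and Klf1 took the lowest places in the same order in WT replicates 2, 3 and 4. Neighbours higher up changed places between libraries: Car1 was above Alas2 in replicate 2 and below it in 3 and 4, and Gata1, Ermap and Slc4a1 had another order in each of the 3. All neighbours in the order differed by less than the larger of their SDs.

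**Figure D1:**
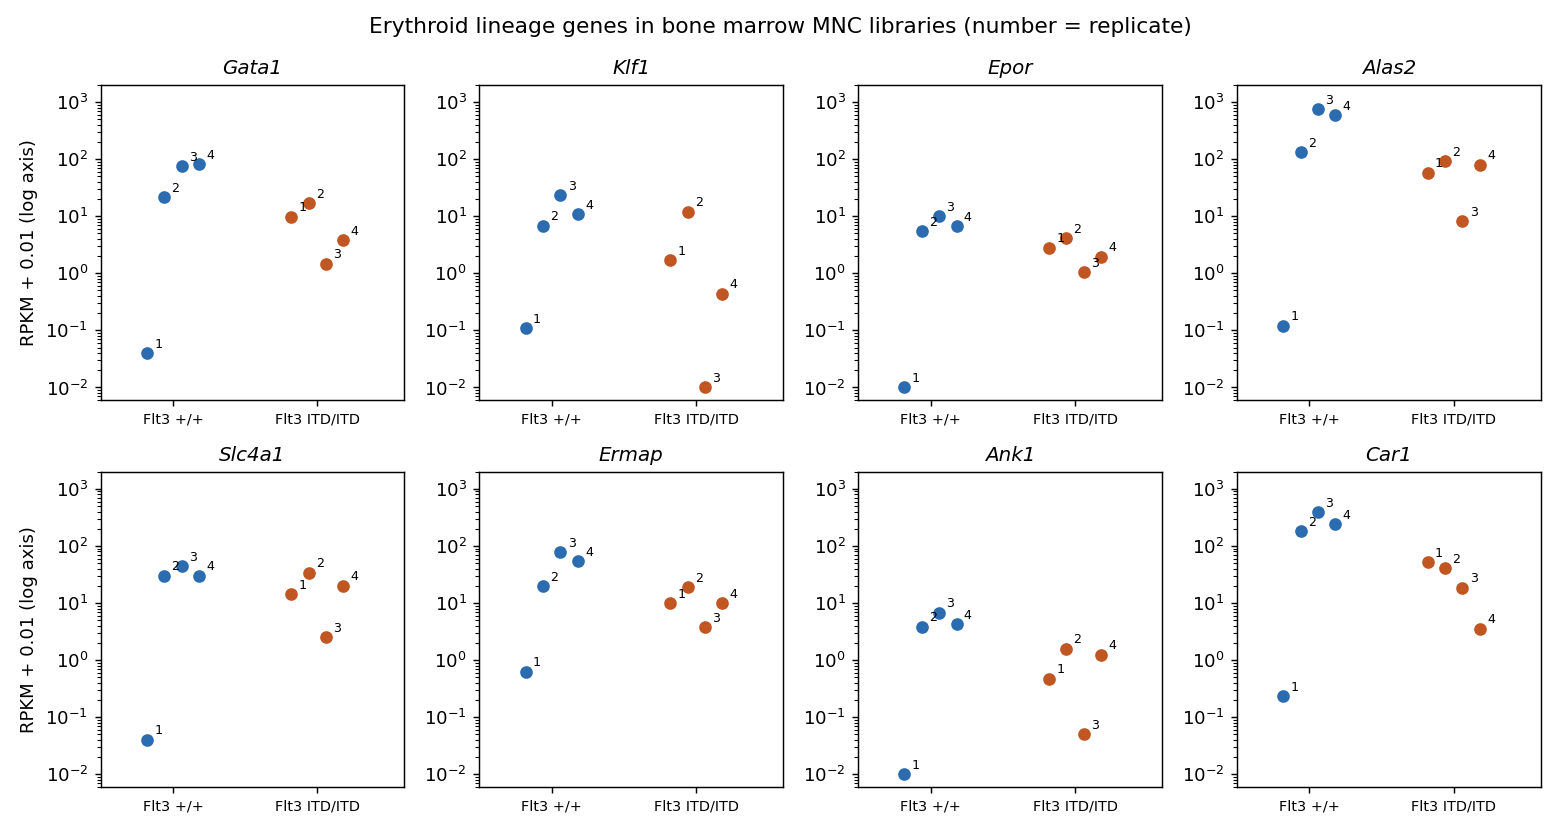
RPKM of each of the 8 genes in every MNC library, with 0.01 added to allow a log axis; blue points are WT (Flt3 +/+) and orange points ITD (Flt3 ITD/ITD) libraries, numbered by replicate. WT replicate 1 lies far below the other WT libraries for all 8 genes, and WT replicates 2 to 4 lie above all ITD libraries for 6 of them.

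Among the regulators, Gata1 RPKM was 0.03, 21.76, 74.90 and 82.05 in WT replicates 1 to 4 and 9.73, 16.77, 1.47 and 3.75 in ITD replicates 1 to 4. Without WT replicate 1 the groups did not overlap; with it they did. The means were 44.7 ± 40.1 in WT and 7.93 ± 6.85 in ITD MNCs (SD, n = 4 each), a log2 fold change of -2.75 (SE 1.32) by edgeR's quasi-likelihood test with a Benjamini-Hochberg adjusted p of 0.501 over 13926 genes. Klf1 RPKM was 0.10, 6.79, 23.45 and 10.97 in WT and 1.69, 12.04, 0 and 0.43 in ITD libraries. ITD replicate 2 was thus above WT replicates 2 and 4, and the log2 fold change of -1.85 (SE 1.54) had an adjusted p of 0.702 by the same edgeR test. Epor RPKM was 0, 5.42, 10.07 and 6.73 in WT and 2.81, 4.09, 1.03 and 1.96 in ITD libraries. The 3 WT libraries with any Epor count were above all ITD libraries, and the log2 fold change was -1.46 (SE 1.11; edgeR adjusted p = 0.670).

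Alas2, the haem enzyme, had the widest range of the set. Its RPKM was 0.11, 133.22, 754.43 and 591.61 in WT and 57.87, 91.85, 8.24 and 79.90 in ITD libraries. WT replicates 2 to 4 were above every ITD library, by the least in replicate 2. The log2 fold change was -3.00 (SE 1.53; edgeR adjusted p = 0.521). Car1 had a fold change close to that of Alas2. Its RPKM was 0.22, 182.34, 387.55 and 239.98 in WT and 51.70, 40.25, 18.58 and 3.55 in ITD libraries, again apart but for WT replicate 1. The log2 fold change was -3.10 (SE 1.39; edgeR adjusted p = 0.478). The SEs of Car1 and Alas2 were far larger than the gap between them, and the order of the genes changed with the libraries used: without ITD replicate 2, Klf1 was at -4.16 and Car1 at -3.30.

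The membrane genes differed among themselves. Ermap RPKM was 0.61, 19.53, 77.44 and 53.40 in WT and 9.93, 18.69, 3.76 and 9.88 in ITD libraries, with a log2 fold change of -2.20 (SE 1.06; edgeR adjusted p = 0.501). WT replicate 2 exceeded ITD replicate 2 only narrowly. Ank1 RPKM was 0, 3.80, 6.80 and 4.21 in WT and 0.46, 1.57, 0.04 and 1.24 in ITD libraries, with a log2 fold change of -2.5 (SE 1.33; edgeR adjusted p = 0.528). Slc4a1 had the smallest difference. Its RPKM was 0.03, 30.18, 44.40 and 29.86 in WT and 14.17, 34.12, 2.51 and 19.97 in ITD libraries, so that ITD replicate 2 was above WT replicates 2 and 4, and the log2 fold change was -0.85 (SE 1.22; edgeR adjusted p = 0.844).

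With all 8 MNC libraries, none of the 8 genes passed the test. A gene counted as called when its adjusted p was below 0.1 and its mean RPKM differed between groups by 1 or more on the log2 scale, which 2 of 13926 genes met (0.0144%). At an unadjusted p below 0.05 there were 0 of the 8 genes, against 10.4% of all genes, and DESeq2 called 0 of the 8 and 1.44% of 22751 genes. All 8 fold changes were negative, against 50.5% of genes, and 7 of 8 were at -1 or below on the log2 scale, against 6% of genes. The exact two-sided permutation test of mean RPKM gave p from 0.143 (Ank1 and Car1) to 0.514 (Slc4a1) for the 8 genes, with 0.0286 the smallest p that 4 against 4 libraries allow.

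Leaving out WT replicate 1 narrowed the spread. All 8 genes were then below WT in ITD MNCs by log2 fold changes of -1.27 (SE 0.662, Slc4a1) to -3.52 (SE 0.786, Car1), and 6 of 8 had an unadjusted p below 0.05, against 6.63% of 14218 genes that were lower at that p. These were Gata1, Epor, Alas2, Ermap, Ank1 and Car1. The same 6 had RPKM ranges that did not overlap between genotypes, against 3.22% of genes in that direction, and WT means 3.0-fold (Epor) to 9.47-fold (Car1) above ITD means. No gene of the 14218 was called in that fit, and the adjusted p of the 8 ran from 0.166 (Car1) to 0.552 (Klf1) by edgeR's test. At an unadjusted p below 0.05 the fit held 12.4% of genes. The exact permutation p of these 6 was 0.0286 each, the smallest that 3 against 4 libraries allow. Because the library was left out for its low level of these very genes, the values without it are a description.

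**Figure D2:**
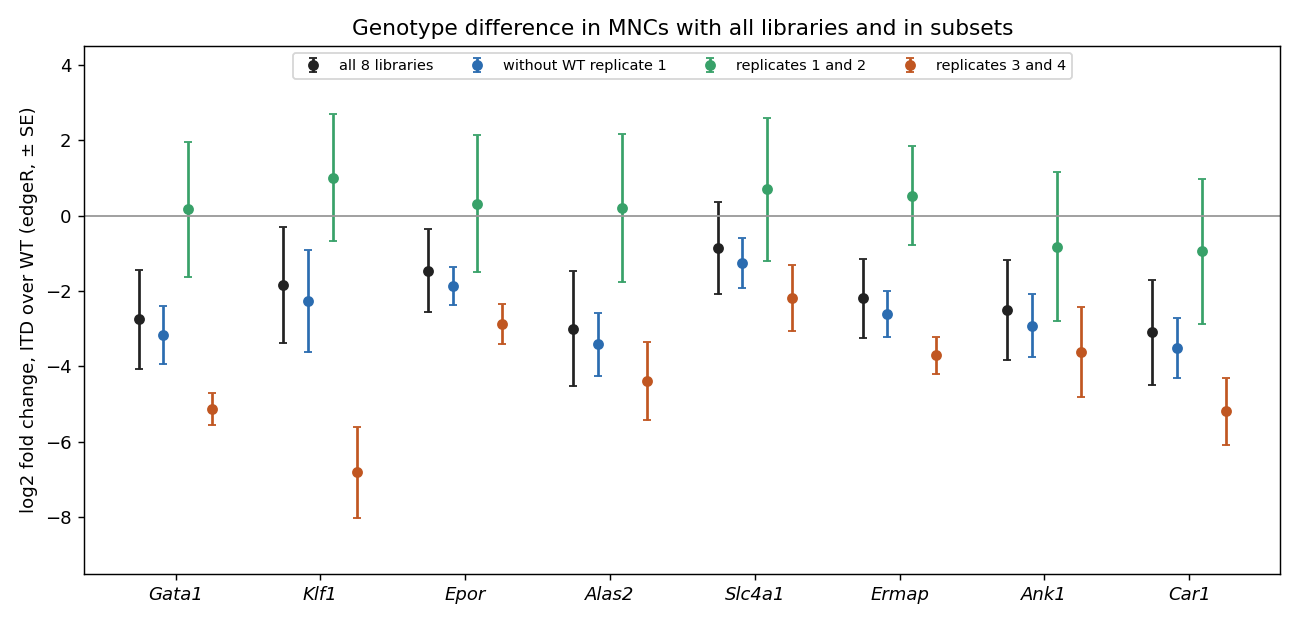
Log2 fold change, ITD over WT, of the 8 genes in MNCs by edgeR, with bars of 1 SE; black points use all 8 libraries, blue points leave out WT replicate 1, green points use replicates 1 and 2 of each genotype and orange points replicates 3 and 4. The orange points are the lowest for each gene (-2.19 to -6.81), while 6 of the 8 green points are above 0.

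A second difference ran across both genotypes. Immediate-early genes, which respond within minutes to handling and other stimuli, summed over 9 genes to 479, 381.9, 31.81 and 26.73 RPKM in WT replicates 1 to 4 and to 470.55, 299.57, 33.3 and 21.04 in ITD replicates 1 to 4. Replicates 1 and 2 were thus high and replicates 3 and 4 low in each genotype. The labels name no batch, and the division was made after these values were seen. In replicates 3 and 4, all 8 genes were lower in both ITD than in both WT libraries, by 3.30-fold to 80.0-fold in mean RPKM, against 14% of genes that did not overlap in that direction. There 6 of 8 genes were called lower, all but Slc4a1 and Ank1, against 4.02% of 13970 genes. Gata1 had a log2 fold change of -5.14 (SE 0.428; edgeR adjusted p = 0.0139) and Ermap of -3.71 (SE 0.486; edgeR adjusted p = 0.0321). In replicates 1 and 2, the fold changes ran from -0.95 (Car1) to 1.0 (Klf1), with 2 of 8 below 0, against 51% of 14252 genes, and none at an unadjusted p below 0.05, against 6.11% of genes; WT replicate 1 is one of the 2 WT libraries there. With the division as a term in the edgeR fit over all 8 libraries, 0 of the 8 genes were called, and the same held with the immediate-early level as a covariate. Whether the immediate-early level has a part in the genotype difference was not tested beyond these fits.

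The 8 genes did not keep fixed proportions. In WT replicates 2 to 4 the ratio of Car1 to Slc4a1 RPKM was 6.04, 8.73 and 8.04. In ITD replicates 1 to 4 it was 3.65, 1.18, 7.40 and 0.178, and the lowest ratio belonged to the library with the highest share of Alas2 among the summed RPKM of the 8 genes (66.2%). The ratio of Slc4a1 to Ank1 was 6.53 to 7.94 in WT replicates 2 to 4 and 16.1 to 62.8 in the ITD libraries. These ratios are descriptions over few libraries, and those with ITD replicate 3 rest on 7 counts of Ank1.

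Other erythroid gene lists lay in the same direction in MNCs, and each is given by its counts beside the median log2 fold change of all genes tested, -0.0053. Of 13 genes of haem synthesis and transport, 12 had a negative fold change, with a median of -1.62, and 10 were lower at an unadjusted p below 0.05, against 5% of all genes. Alad, the enzyme that joins the product of Alas2 into porphobilinogen, was at 4.48, 27.37, 81.19 and 75.82 RPKM in WT and 11.68, 17.64, 5.54 and 7.77 in ITD libraries. Its log2 fold change was -2.46 (SE 0.815; edgeR adjusted p = 0.415). Uros, a later enzyme of the pathway, was at -2.52 (SE 0.858), and Tmem14c, a mitochondrial porphyrin transporter, at -0.96 (SE 0.337), both with an edgeR adjusted p of 0.419. WT replicate 1 was the lowest library for Alad, Uros and Tmem14c.

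All 20 tested genes of the red cell membrane and skeleton had a negative fold change, with a median of -2.02, and 5 of them were lower at an unadjusted p below 0.05. Gypc, a glycophorin, was at -1.87 (SE 0.681), Icam4, an adhesion molecule of red cells, at -2.71 (SE 1.01) and Epb4.2, the protein 4.2 that binds band 3, at -2.90 (SE 1.13). The 3 globin genes that passed the filter, Hba-a2, Hbb-bt and Hbb-bs, were at -3.20, -3.11 and -3.09 (SE 1.45, 1.43 and 1.45). Hba-a2 RPKM was 47.56, 20284.8, 79278.72 and 71658 in WT and 6049.48, 11508.29, 1174.03 and 4767.85 in ITD libraries. In the WT group Hba-a2 was, like Gata1, lowest in replicate 1 and highest in replicates 3 and 4, although replicate 3 was above replicate 4 for Hba-a2 and below it for Gata1. Near-identical globin copies share reads, so the split between them is uncertain.

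Of 15 erythroid transcription factors tested, 12 had a negative fold change, with a median of -0.90. Lmo2, a bridging protein of the GATA and Tal1 complex, was at 33.09, 44.36, 45.07 and 47.97 RPKM in WT and 32.99, 30.26, 23.64 and 25.16 in ITD libraries. Its log2 fold change was -0.83 (SE 0.234; edgeR adjusted p = 0.401). WT replicate 1 was the lowest WT library for Lmo2 and lay narrowly above every ITD library. E2f2 and E2f4, cell cycle factors with a role in erythroid maturation, were at -0.90 (SE 0.298) and -1.25 (SE 0.433). All 7 tested genes of iron uptake and handling were negative (median -0.90), led by the iron transporter Slc11a2 at -1.31 (SE 0.553), the transferrin receptor Tfrc at -1.05 (SE 0.508) and the ferrireductase Steap3 at -1.15 (SE 0.58). Of 14 red cell enzymes and maturation genes, 12 were negative (median -1.16), among them the biliverdin reductase Blvrb at -2.45 (SE 0.852) and the peroxiredoxin Prdx2 at -1.88 (SE 0.655). No gene of these 6 lists was called by edgeR. DESeq2 called 4 of them lower, Tal1 (-2.63, SE 0.819), Gypc (-1.88, SE 0.622), Prdx2 (-1.89, SE 0.597) and Trim58 (-5.46, SE 1.64), of which Tal1 and Trim58 are named after their values were seen. DESeq2 calls did not all go down: a gene of the enzyme and maturation list, among those not reported here, was called higher in ITD MNCs. With all libraries, edgeR gave 5 transcription factor genes, 10 haem, 5 membrane, 0 globin, 1 iron and 5 enzyme genes lower at an unadjusted p below 0.05, against 5% of all genes. Without WT replicate 1 the numbers were 8, 12, 16, 3, 3 and 6 in the same order, against 6.63% of all genes in that fit.

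**Figure D3:**
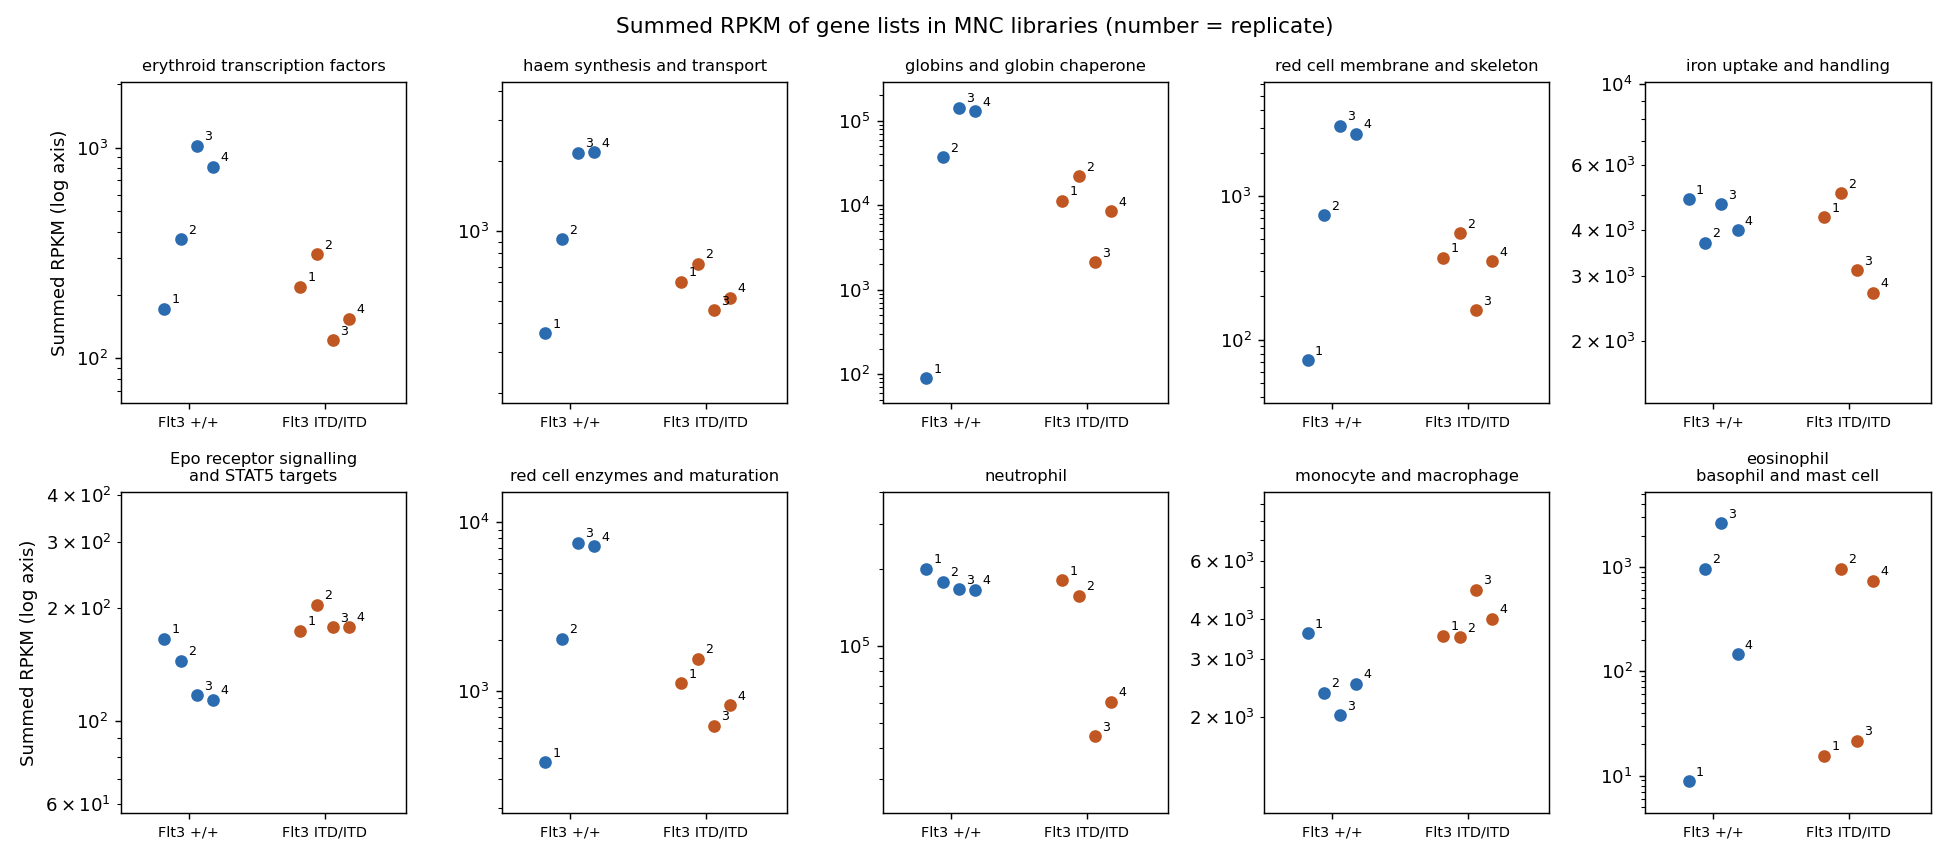
Summed RPKM of the 7 other erythroid lists and of 3 marker lists of other blood cells in the 8 MNC libraries, on log axes that differ between panels; blue points are WT and orange points ITD libraries, numbered by replicate. In the globin panel WT replicate 1 (90.31) is the lowest and WT replicates 3 and 4 the highest. The list of Epo receptor signalling and STAT5 targets has all 4 ITD libraries (173.58 to 203.47) above all 4 WT libraries (113.67 to 165.2). That separation depends on Socs2 (12.21 to 18.37 in ITD and 0.26 to 1.86 in WT libraries), and without it the sums overlap.

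Genes of Epo receptor signalling had fold changes in both directions. Of 11 tested genes of this pathway and STAT5 targets, 4 had a negative and 7 a positive fold change, with a median of 0.14. Socs2, a feedback inhibitor of cytokine receptors that STAT5 switches on, was called higher in ITD MNCs. Its RPKM was 1.2, 1.86, 0.26 and 1.06 in WT and 16.41, 12.21, 18.37 and 18.27 in ITD libraries, with no overlap and a log2 fold change of 3.72 (SE 0.44; edgeR adjusted p = 0.0779). It was 1 of the 2 genes called in MNCs. Without WT replicate 1 its log2 fold change was 3.72 (SE 0.514) and it was no longer called (edgeR adjusted p = 0.122). DESeq2 called it with all libraries (3.73, SE 0.403). In replicates 3 and 4 it was called (4.32, SE 0.645; edgeR adjusted p = 0.0404), and in replicates 1 and 2 it was not (3.22, SE 0.407; edgeR adjusted p = 0.809). STAT5 is activated by several receptors, Flt3-ITD among them.

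Markers of other blood cells also varied between the MNC libraries. Over 11 neutrophil genes the summed RPKM was 166112 to 200990 in WT MNCs and 44391 to 181047 in ITD MNCs, with ITD replicates 3 and 4 at 44391 and 60439. The genes of this list did not move together. By edgeR, Elane (1.12), Mpo (1.48), Prtn3 (0.66) and Ctsg (0.79) had positive log2 fold changes. Camp, Ltf, Ngp, Lcn2, S100a8, S100a9 and Mmp8 had negative ones, from -0.67 (Camp) to -1.15 (Mmp8). DESeq2 called Mpo higher in ITD MNCs (1.49, SE 0.414). Over 12 monocyte and macrophage genes the summed RPKM was 2021 to 3604 in WT and 3513 to 4912 in ITD MNCs. Over 10 megakaryocyte genes it was 9.25 to 31.5 in WT and 4.43 to 11.2 in ITD MNCs, and Pf4 had no count in 2 ITD libraries. Over 9 B cell genes the summed RPKM was 317 to 917 in WT and 187 to 586 in ITD MNCs. Every tested gene of the megakaryocyte and B cell lists had a negative log2 fold change by edgeR. Gata1 is also known from megakaryocytes and from eosinophils, basophils and mast cells. The 10 markers of the latter summed to 8.78, 965.17, 2623.3 and 146.07 RPKM in WT replicates 1 to 4 and to 15.44, 964.72, 21.59 and 738.97 in ITD replicates 1 to 4. Epx had no count in any WT library and Cma1 none in any ITD library. Gata1 was at 0.03, 21.76, 74.90 and 82.05 RPKM in the same WT libraries. In the ITD libraries it was at 9.73, 16.77, 1.47 and 3.75. The part of other cell types in the values of Gata1 was not tested.

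The genes most like the 8 members in their levels were ranked as well. Over the 8 MNC libraries, with log2(RPKM + 1) taken as the deviation from the genotype mean, the 10 genes of 12028 with the highest Pearson r to the mean of the members included Hbb-bt, Hbb-bs, Cpox, Tal1, Sox6, Car2, Hba-a2, Slc38a5 and Hemgn, at r from 0.993 to 0.989. Of these, all but Slc38a5, an amino acid transporter, stand on the erythroid lists above. The measure rests largely on WT replicate 1. Without it, 3 of the 10 stayed among the 10 highest, with r of those named from 0.930 to 0.976, and 6 of the 10 highest stood on no erythroid list, among them Gclm, Aldh1a1, Isg20 and Ube2c at r from 0.990 to 0.973.

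Outside MNCs the 8 genes were rare in most libraries, apart from Epor and Ermap in ECs. In MSCs no library of either genotype had a count of Gata1, Klf1, Slc4a1 or Car1. Against a floor of 3 counts over the 5 WT MSC libraries together, WT MNCs held at least 3258-fold more Gata1, 735.5-fold more Klf1, 5651-fold more Slc4a1 and 11110-fold more Car1 in mean CPM (counts scaled to library depth). These folds are of the WT MNC mean and do not hold for WT MNC replicate 1. That library held 0.052 CPM of Gata1, 0.156 of Klf1, 0.156 of Slc4a1 and 0.26 of Car1, against a floor of 0.0217. Such floors cover counting error only. Ermap was found in all 10 MSC libraries, but at 0.25 to 0.82 RPKM in WT and 0.12 to 0.68 in ITD. Between WT MNCs and WT MSCs, Ermap (log2 fold change 6.14, SE 1.11; edgeR adjusted p = 0.00153) and Ank1 (4.79, SE 1.65; edgeR adjusted p = 0.0411) were called higher in MNCs, against 19.7% of 14885 genes called in that direction. These 2 were the only members that passed the filter on low counts. With no filter, with DESeq2 or without WT MNC replicate 1, all 8 were called, against 16.5% of 22646 genes by DESeq2. The share over all genes is given for DESeq2 only. Gata1, Klf1, Epor, Alas2, Slc4a1 and Car1 had no count in any WT MSC library. They entered these tests through their MNC counts, and their calls rest on those counts alone.

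In ECs, 1 library carried most of the counts. WT EC replicate 1 had 17 counts of Gata1 (4.09 RPKM), 21 of Klf1 (1 RPKM), 126 of Alas2 (4.67), 190 of Slc4a1 (2.98) and 8974 of Car1 (555.88), while the other 4 WT EC libraries had at most 3 counts of Gata1, Klf1, Alas2, Slc4a1 or Car1. Its Car1 level was above that of every MNC library, whereas its Alas2 was at 4.67 RPKM against 754.43 in the highest of them. The globins in it summed to 4106 RPKM, against 43.71, 359.74, 49.93 and 28.53 in WT EC replicates 2 to 5 and 1.19 to 2614 in ITD ECs. The 11 neutrophil genes summed to 1321 RPKM in it and to 1.82 to 97.75 in the other WT ECs, so that it stood apart for them as well. ITD EC replicate 2 held both 2614 RPKM of globins and 30070 of neutrophil genes, without a count of Car1. The part of other blood cells in these values was not tested. Between WT MNCs and WT ECs, 6 of the 8 genes were called higher in MNCs, all but Epor and Car1, against 16.3% of 14125 genes. Gata1, Klf1, Alas2, Slc4a1 and Car1 passed the filter on low counts through MNC libraries and WT EC replicate 1 only. The direction of the calls of Gata1, Klf1, Alas2 and Slc4a1 follows from that entry, and the number called is a description. The log2 fold changes of the 6 called genes ran from 3.81 (SE 1.21, Ermap) to 8.98 (SE 2.58, Alas2). Without WT EC replicate 1, 3 of the 8 passed the filter on low counts and 2 were called, Ermap at 4.15 (SE 1.39) and Ank1 at 7.60 (SE 2.26), against 17.9% of 13894 genes, while without WT MNC replicate 3 only 3 of the 8 were called.

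Epor had counts in some EC libraries. Its counts were 1, 0, 3, 0 and 947 in WT and 0, 319, 475, 40 and 691 in ITD EC replicates 1 to 5, or 0.04, 0, 0.11, 0 and 17.89 against 0, 5.63, 10.21, 1.83 and 14.75 RPKM. More than 3 counts were thus found in 1 of 5 WT and 4 of 5 ITD libraries, with the highest value in a WT library. The highest EC libraries were above the highest MNC library (10.07). Klf1 and Gata1 had no count in any ITD EC library and no more than 1 in WT EC replicates 2 to 5. In ITD EC replicates 1 to 5, Alas2 had 0, 2, 16, 0 and 71 counts and Slc4a1 had 0, 1, 0, 0 and 26. In WT EC replicate 5, Alas2 had 0 counts and Slc4a1 had 1. The part of erythroid cells in these Epor counts was not tested. The log2 fold change between genotypes was 0.97 (SE 2.0; edgeR adjusted p = 0.9998), and the exact permutation p of mean RPKM was 0.603, with 0.00794 the smallest that 5 against 5 libraries allow. The fold change rested on WT EC replicate 5: without it the value was 7.22 (edgeR adjusted p = 0.730), and without ITD EC replicate 5 it was 0.41 (edgeR adjusted p = 0.998). Between WT MNCs and WT ECs, Epor differed by 0.98 on the log2 scale (SE 2.16; edgeR adjusted p = 0.770).

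Ermap differed between genotypes in ECs before correction. Its RPKM was 6.83, 1.22, 1.36, 0.99 and 7.31 in WT and 0.53, 1.5, 0.75, 0.75 and 0.61 in ITD libraries. WT replicates 1 and 5 were high, and the other 3 WT libraries lay within the ITD range. The exact permutation test gave p = 0.0476, the only one of 20 such tests below 0.05, and 0 of the 20 were below it on TMM-scaled CPM. The log2 fold change was -2.16 (SE 0.826; edgeR adjusted p = 0.927), with an unadjusted p below 0.05, and -1.80 (SE 0.845; edgeR adjusted p = 0.937) without WT EC replicate 1, with an unadjusted p above it. In ECs, 4.99% of 12351 genes had an unadjusted p below 0.05 and 1 gene (0.0081%) was called. Epor and Ermap were the only members that passed the filter there, and neither was called.

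In MSCs, Ermap and Ank1 passed the filter, and neither was called, against 0.0295% of 13574 genes. Ank1 had 0, 51, 71, 2 and 10 counts in WT and 0, 82, 182, 159 and 1 in ITD MSC replicates 1 to 5, at most 1.70 RPKM, with a log2 fold change of 1.87 (SE 1.53; edgeR adjusted p = 0.999). Both genotypes held libraries near 0 and libraries above 50 counts. Ermap was at -0.65 (SE 0.581; edgeR adjusted p = 0.999). Epor had 50 counts in 1 ITD MSC library and Alas2 19 and 40 in 2 of them, with none in WT MSCs.

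The genotype effect in MNCs was also set against that in the other populations, in 1 edgeR fit of all 28 libraries. None of the 8 differences between MNCs and ECs and none of the 8 between MNCs and MSCs had an adjusted p below 0.1, against 0.0118% and 0.00592% of 16897 genes. Gata1, Klf1, Slc4a1 and Car1 had no count in any MSC library. Their difference with MSCs therefore could not be estimated (SE 3132 to 28830), and the test could not have called it. For Ermap, which had counts in all 28 libraries, the difference was -0.04 (SE 1.23) between MNCs and ECs and -1.53 (SE 1.17) between MNCs and MSCs on the log2 scale. The widest difference with ECs, that of Car1 (11.28, SE 4.81; edgeR adjusted p = 0.558), compares with ECs in which WT replicate 1 held 8974 of the Car1 counts, WT replicates 3 and 4 held 3 each and no other library held any. DESeq2 gave 2 of the 16 differences an adjusted p below 0.1, Car1 between MNCs and ECs and Epor between MNCs and MSCs, each of which rests on 1 library with more than 3 counts of the gene among the ECs or MSCs (8974 in WT EC replicate 1 and 50 in ITD MSC replicate 3).

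**Figure D4:**
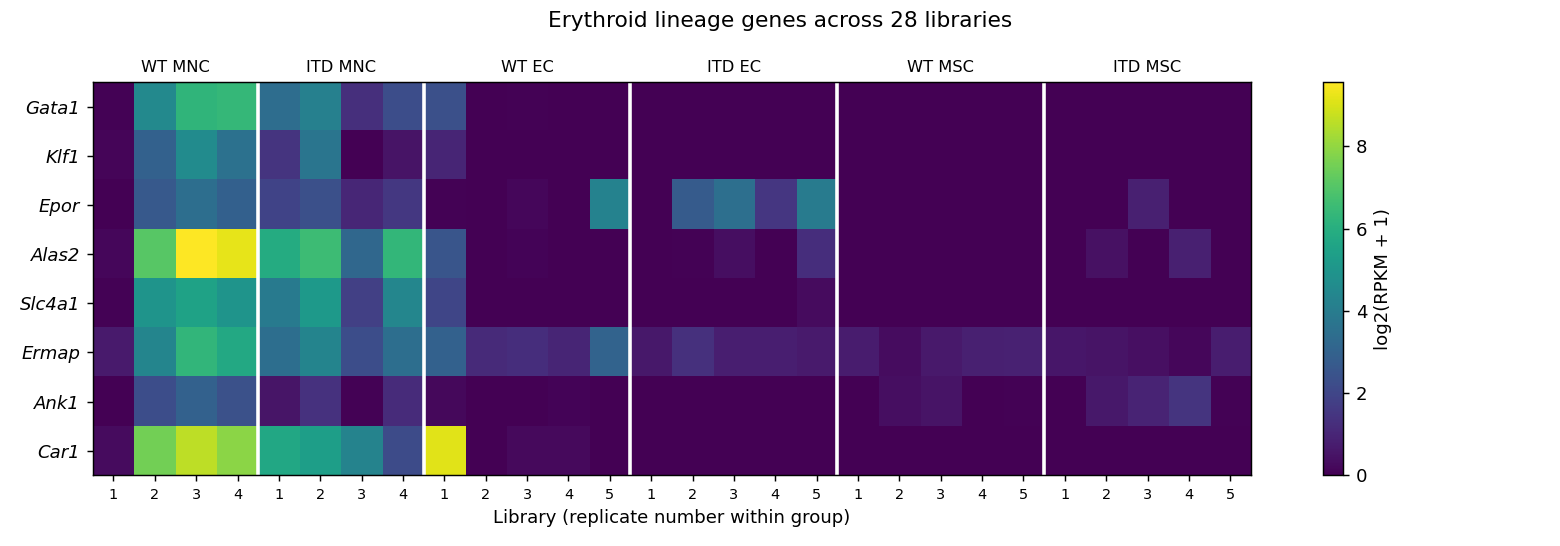
Heat map of log2(RPKM + 1) of the 8 genes (rows) in all 28 libraries (columns, by group and replicate); brighter colour is a higher level. The signal lies in MNC libraries other than WT replicate 1, in WT EC replicate 1 with Car1 at 555.88 RPKM, and in a few EC libraries for Epor and Ermap.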

How the data were processed

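RNA of 3 cell populations (MNCs, ECs and MSCs) of both genotypes was amplified with the SMARTer Ultra Low kit (15 cycles), tagmented with Nextera XT and sequenced as 51-base single reads. The authors aligned reads with Bowtie to mm10 UCSC transcripts, discarded reads without a unique match and ran RSEM; tool versions are not given in the sources used here. The authors deposited 1 table of estimated counts per gene, whole in the file, and of RPKM per gene for each of the 28 libraries. Total counts per library were 6377013 to 33880743. PCR reads carry no molecular identifiers, so floors of 3 counts cover counting error only.

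Counts were tested with edgeR 4.0.16 (R 4.3.3; filterByExpr, TMM, quasi-likelihood F-test), fitted over all genes and adjusted by Benjamini-Hochberg; SEs are the fold change over the root of F. Calls needed an adjusted p below 0.1 and mean RPKM apart by 1 or more on the log2 scale. Both thresholds are the study's, which accepted a gene from either of 2 tools; here edgeR alone made the calls, a stricter rule, and DESeq2 1.42.0 was an alternative. The test was tried on simulated counts. Single genes were compared by exact permutation. The labels give genotype, population and replicate number and name no pairing. Over 14 pairs of same-numbered WT and ITD libraries, r of deviations was low (-0.136 to 0.0886). Even so, EC replicates 2, 3 and 4 and MSC replicates 2, 3 and 5 matched their own number best, and no MNC replicate did. Whether the numbers mark pairs was not settled. Libraries came from separate samples by label. All 8 members are named, and of each other list the called genes or else the 3 with the lowest p in MNCs. A few genes that the rule names are not reported here. The members and lists were chosen with earlier results of these data known. Promoters came from RefSeq (GRCm38.p6), positions from GENCODE M21 (GRCm38); 5 of 8 members matched.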

Additional observations from a re-analysis of the deposited data

Results flagged for a closer look

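In 12 of the 35 groups of libraries in which a member varied (34.3%), the highest library lay farther from the next one than Dixon's 95% limit allows. For normally distributed independent values about 5% of groups would pass. RPKM with many zeros are not such values, and a group with 1 library above 0 passes whatever its level. The share is therefore a description and not an excess over chance. Of the 12 groups, 5 were WT EC replicate 1, at 4.09 RPKM of Gata1 against 0.04 in the next WT EC library, 1 of Klf1 against 0, 4.67 of Alas2 against 0.07, 2.98 of Slc4a1 against 0.02 and 555.88 of Car1 against 0.19. ITD EC replicate 5 stood apart for Alas2 (1.38 RPKM, next 0.28) and Slc4a1 (0.21, next 0.01). WT EC replicate 5 stood apart for Epor at 17.89 RPKM against 0.11, ITD EC replicate 2 for Ermap at 1.5 against 0.75 and ITD EC replicate 3 for Ank1 at 0.01 against 0, the last on 2 counts. In ITD MNCs, replicate 2 held 12.04 RPKM of Klf1 against 1.69 in the next library. In ITD MSCs, replicate 3 held 0.81 RPKM of Epor (50 counts) against 0. WT MNC replicate 1, far below the others on a log scale, did not pass the limit in RPKM, where its gap to the next library is a smaller share of the range.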

How the results depend on the processing

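In MNCs, 0 of the 8 genes were called by DESeq2, with RLE size factors, with no filter on low counts, in 1 fit of all 28 libraries, with the immediate-early level as a covariate, with the 2 pairs of replicates as a term and without any 1 library; in replicates 3 and 4 only, chosen after seeing the data, 6 were. In replicates 1 and 2 only, the log2 fold change reversed for Gata1 (0.17), Klf1 (1.0), Epor (0.32), Alas2 (0.19), Slc4a1 (0.70) and Ermap (0.53); the cause was not tested, and 1 of the 2 WT libraries there is the one without erythroid RNA. Without WT MNC replicate 1, the number of members at an unadjusted p below 0.05 went from 0 to 6. For WT MNCs against WT ECs, 6 members were called, and 2 to 6 with 1 library left out (2 without WT EC replicate 1, 3 without WT MNC replicate 3). For WT MNCs against WT MSCs, 2 were called, 8 by DESeq2 and 8 with no filter, since fewer members were tested with it, and 1 to 8 with 1 library left out (1 without WT MNC replicate 3, 8 without WT MNC replicate 1). Between populations, DESeq2 gave 2 genotype differences that differed and edgeR 0. Of 20 exact permutation tests, 1 was below 0.05 in RPKM, 0 on TMM-scaled CPM and 0 to 7 with 1 library left out (7 without WT MNC replicate 1). Whether replicate numbers mark pairs of libraries was not settled. With a replicate block 0 members were called in MNCs, 0 in ECs and 0 in MSCs, and 0 of the differences between populations. In ECs and MSCs, 6 of the 8 members each had too few counts to pass the filter. With no filter, none was called by edgeR, with adjusted p from 0.560 to 0.950 for the 8 in ECs and from 0.598 to 0.851 for the 4 with any count in MSCs. Gata1, Klf1, Ermap and Car1 in ECs and Epor and Alas2 in MSCs then had an unadjusted p below 0.05. The share of all genes at that p is not given for these fits. WT EC replicate 1 held nearly all EC counts of Gata1, Klf1 and Car1. In MSCs, Epor had counts in 1 ITD library and Alas2 in 2. These p are therefore no result about the members. The Epor fold change in ECs was 4.9 with the replicate block (edgeR adjusted p = 0.9997).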
